A study of Mus musculus with 17 samples.

Results

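Plasma cells are the antibody-secreting end stage of B cells, and 10 genes known for their work in these cells, none of them an immunoglobulin gene, were followed through a mouse lung irradiation study. The genes were chosen by name (Mzb1, Derl3, Tnfrsf17, Tnfrsf13b, Sdc1, Prdm1, Xbp1, Irf4, Pou2af1 and Fkbp11), and all 10 were found once each among the 45777 genes of the count table. All 10 were among the 22052 genes that passed the filter on low counts.

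The libraries came from lungs of wild-type male C57BL/6 mice that were 6 weeks old at arrival. The irradiated mice received a single focal dose of 65 or 75 Gy to the left lung, the control mice received none, and lungs were collected after 2 or 6 weeks. The 17 libraries analysed here comprised 3 per group, except for 2 at 65 Gy and 6 weeks. RNA of the irradiated groups was taken from the lesion, so where the tissue was cut and the dose cannot be told apart. Each library held between 46764569 and 66797879 counts, and levels are given as CPM, which are counts scaled to a common library size with TMM factors. Sftpc, the surfactant protein of alveolar type 2 cells, stood between 8368 and 18730.0 CPM in every library, so that the lung label fitted its marker. Libraries are named by the numbers in their labels, and p-values measure the spread between these libraries only, since nothing states which animal each came from.

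A B cell that becomes a plasma cell turns on the transcription factors IRF4 and Blimp-1 (encoded by Prdm1), and XBP1, the factor of the unfolded protein response, enlarges its endoplasmic reticulum. Surface receptors of the TNF receptor family then bind the survival factors BAFF and APRIL, and syndecan-1 (Sdc1, CD138) marks the mature cell. Many of these genes also act elsewhere: Sdc1 and Xbp1 are made by epithelial and secretory cells, Irf4 and Prdm1 by T cells and myeloid cells, and Pou2af1 by B cells before they secrete antibody.

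Of the 10 genes, Mzb1 and Derl3 passed both limits of a call, at 6 weeks. They rose after 75 Gy, both by somewhat more than the fold limit of 1 on the log2 scale, and neither differed from control at 2 weeks beyond the spread of the libraries. Mzb1 (GeneID 69816, chromosome 18, 35647265 to 35650266, GRCm38.p6) encodes a chaperone of the endoplasmic reticulum that helps to assemble IgM. In the controls of 6 weeks Mzb1 was at 8.08, 5.95 and 5.57 CPM. The 75 Gy libraries of 6 weeks held 10.2, 10.4 and 22.9 CPM, all above the controls, and library 3143 was far above the rest. Mzb1 thus rose, with group means of 6.53 ± 1.35 and 14.5 ± 7.28 CPM (± SD, n = 3 each). In edgeR's quasi-likelihood test its log2 fold change was 1.15 (SE 0.30, adjusted p = 0.00855). The 65 Gy libraries of 6 weeks were at 14.1 and 7.42 CPM, so the lower of them lay within the range of the controls, and the log2 fold change of 0.72 (SE 0.33, adjusted p = 0.159) did not pass. Without the higher one, library 3138, it was 0.20 (adjusted p = 0.827).

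Derl3 (GeneID 70377, chromosome 10, 75893398 to 75895941), a derlin that takes part in the removal of misfolded proteins from the endoplasmic reticulum, was likewise highest in libraries 3143 (75 Gy) and 3138 (65 Gy), at a lower level. It was at 1.74, 1.53 and 1.71 CPM in the controls of 6 weeks, which is 86 to 107 counts per library. It was at 2.64, 2.35 and 5.77 CPM after 75 Gy and at 4.21 and 2.24 CPM after 65 Gy, and all irradiated libraries of 6 weeks were above all controls. The log2 fold change was 1.11 (SE 0.32, adjusted p = 0.0135) at 75 Gy, and it did not pass at 65 Gy (0.96, SE 0.35, adjusted p = 0.0776, and 0.44 without library 3138). Both calls at 75 Gy rested on library 3143. Without it, Mzb1 had a log2 difference of 0.67 (SE 0.25, adjusted p = 0.0630) and Derl3 one of 0.61 (SE 0.26, adjusted p = 0.105), still positive but no longer past the threshold. Library 3143 also held the most immunoglobulin RNA, as given further on. In a whole-tissue library, more cells of a type and more RNA per cell cannot be told apart.

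The promoter letters of Derl3 matched an element of the unfolded protein response, and those of Pou2af1, given further on, matched the core of another. RefSeq promoter windows on GRCm38.p6, from 250 bases before to 50 after the start, were searched for 9 of the 10 members (10 windows, as Fkbp11 has a pair of starts). The Mzb1 promoter was left out and was not searched. The ER stress response element, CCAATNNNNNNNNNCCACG on either strand, was found in the Derl3 window and in no other window searched for the members. It was in 39 of 32851 promoters of the table (0.119%). The match in Derl3 began 156 bases before the start, on the minus strand. The shorter CCACG, which is the end of that element, was present in windows of 6 members and in 32.8% of all promoters. The 250 bases before the Derl3 start (chr10:75893148-75893397, plus strand) are shown because they carry this match. Capitals mark the whole element and each CCACG or its complement.
Derl3: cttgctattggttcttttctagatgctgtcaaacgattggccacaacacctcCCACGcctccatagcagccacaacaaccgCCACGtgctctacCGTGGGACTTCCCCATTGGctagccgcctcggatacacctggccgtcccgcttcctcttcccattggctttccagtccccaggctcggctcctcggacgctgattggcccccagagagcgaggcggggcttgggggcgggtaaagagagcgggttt
A match of letters is a description of the window and not a site of binding.

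Fkbp11 (GeneID 66120, chromosome 15, 98724368 to 98728198), a peptidyl-prolyl isomerase, also works in the secretory pathway. At 6 weeks it was at 4.90, 3.64 and 2.58 CPM in the controls, 6.94 and 6.72 CPM after 65 Gy and 6.54, 6.60 and 8.14 CPM after 75 Gy. Every irradiated library of 6 weeks was thus above every control. The log2 fold change at 75 Gy was 0.94 (SE 0.31, adjusted p = 0.0297), past the adjusted p but under the fold limit. Without control library 3135 it was 1.19 (adjusted p = 0.0217) and passed both, while without library 3136, 3137, 3142 or 3143 it passed neither, with 0.73 the lowest value. At 65 Gy it was 0.88 (SE 0.34, adjusted p = 0.0989).

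**Figure D1:**
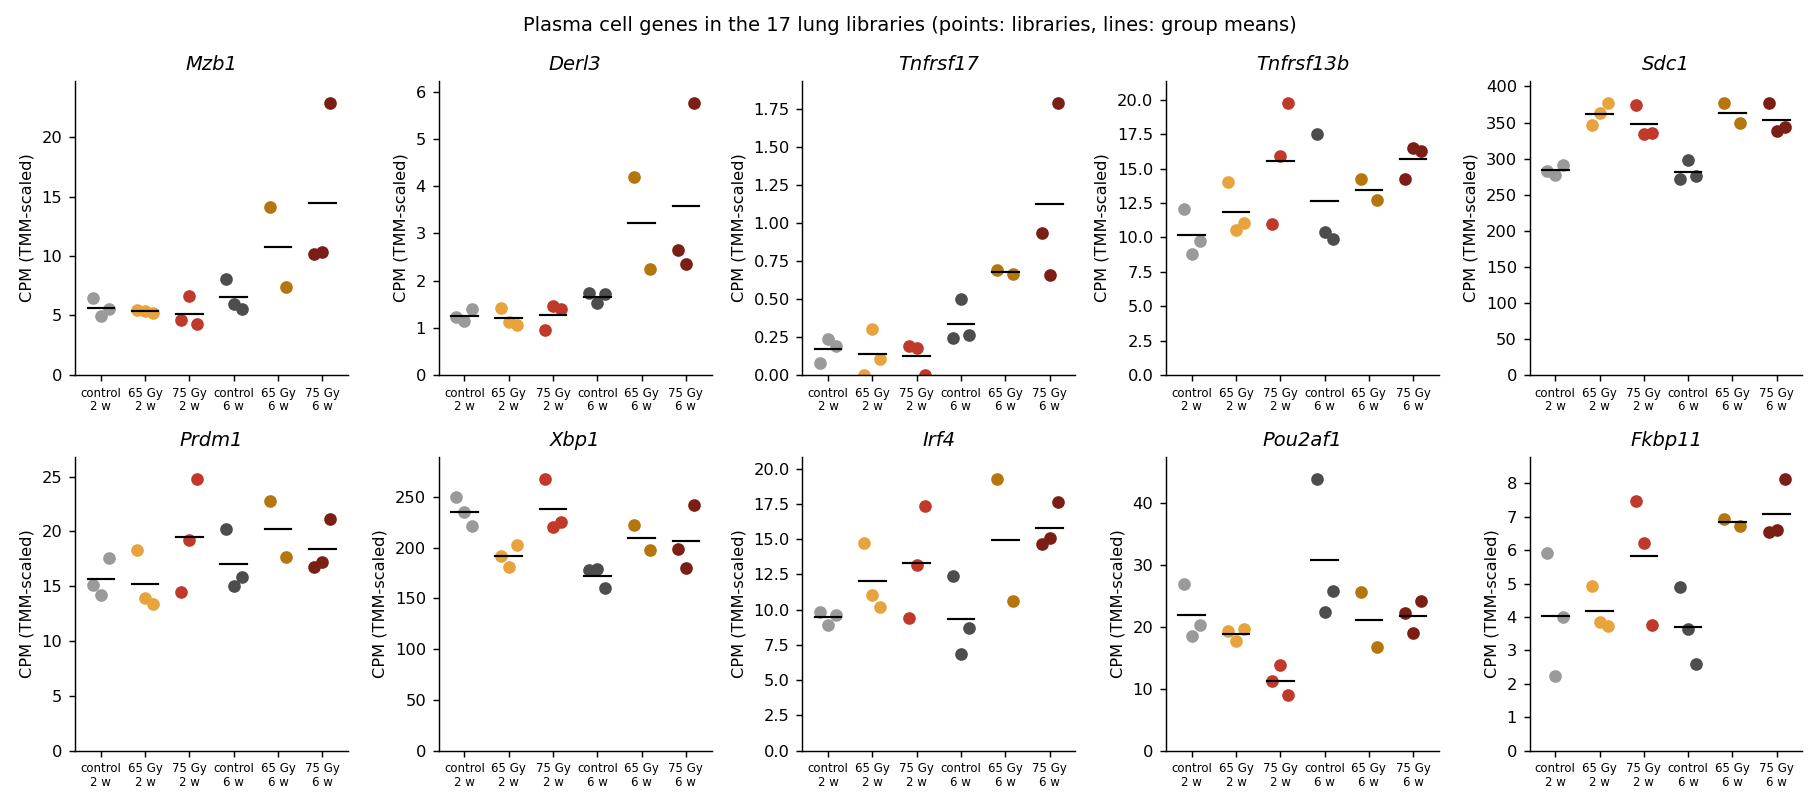
Level of each of the 10 genes in CPM (linear axes from 0) by dose and time group. Points are libraries and lines are group means: Mzb1 and Derl3 are highest in 1 library of 75 Gy at 6 weeks (22.9 and 5.77 CPM), while the Sdc1 points of all irradiated groups lie above those of both control groups.

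Of the receptors, Tnfrsf17 (BCMA, GeneID 21935, chromosome 16, 11313232 to 11320074), the APRIL receptor that is largely restricted to plasma cells and plasmablasts, had the largest fold change of the 10 and the fewest counts. Its counts at 6 weeks were 15, 28 and 15 in the controls, 42 and 39 after 65 Gy and 57, 37 and 98 after 75 Gy. All 5 irradiated libraries were above all 3 controls. The log2 fold change was 1.75 at 75 Gy (SE 0.76, adjusted p = 0.0852) and 1.02 at 65 Gy (SE 0.83, adjusted p = 0.452), so neither passed. With only the 6 libraries of 75 Gy and control at 6 weeks in the fit, the same change at 75 Gy passed (adjusted p = 0.0142), and so it did without library 3129 or 3134, both of 2 weeks (0.0440 and 0.0418), whereas without library 3143 the log2 fold change was 1.26 (adjusted p = 0.299). At 2 weeks no library held more than 19 counts. Tnfrsf17 had 0 counts in library 3129 (65 Gy) and library 3134 (75 Gy), which at 3 counts allows up to 0.0484 and 0.0528 CPM.

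Tnfrsf13b (TACI, GeneID 57916, chromosome 11, 61126283 to 61153170) binds both BAFF and APRIL and is found on several B cell stages. It shares 1390 bases with Usp22 in the annotation, and whether the counting used strand is not given in the sources used here. Its controls of 6 weeks were at 17.5, 10.4 and 9.91 CPM and the 75 Gy libraries at 14.3, 16.5 and 16.3 CPM, so the groups overlapped (log2 fold change 0.31, SE 0.23, adjusted p = 0.297). Control library 3135 held the highest of these values, and without it the log2 fold change was 0.63 (adjusted p = 0.0406).

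Sdc1 (GeneID 20969, chromosome 12, 8771396 to 8793716) differed from control in the same way in all 4 irradiated groups, by a small amount. The controls held 278 to 291 CPM at 2 weeks and 272 to 297 CPM at 6 weeks. The 65 Gy libraries held 346 to 377 CPM at 2 weeks and 350.0 and 377 CPM at 6 weeks, and the 75 Gy libraries 334 to 374 and 338 to 377 CPM. No irradiated library reached down to a control. The log2 fold changes were 0.35 (adjusted p = 0.0103) and 0.29 (adjusted p = 0.0144) for 65 and 75 Gy at 2 weeks, and 0.37 (adjusted p = 0.0120) and 0.33 (adjusted p = 0.00504) at 6 weeks, with SE from 0.08 to 0.09. All were past the adjusted p and far under the fold limit. The adjusted p rose above 0.05 without control library 3127 or the 75 Gy library 3132 for 75 Gy at 2 weeks, also with only the groups compared (0.189), and without library 3138 for 65 Gy at 6 weeks, where 1 irradiated library then remained. Sdc1 was the most abundant member per length, at 86.7 CPM per kb over all libraries against 0.507 CPM per kb for Tnfrsf17.

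The transcription factors did not move as a group. Xbp1 (GeneID 22433, chromosome 11, 5520641 to 5525993) was at 177, 179 and 161 CPM in the controls of 6 weeks, 222 and 197 CPM after 65 Gy and 199, 180 and 242 CPM after 75 Gy. All irradiated libraries were above the controls, the lowest of them by less than 1 CPM, and the log2 fold changes of 0.28 (SE 0.12, adjusted p = 0.141) and 0.26 (SE 0.11, adjusted p = 0.0795) did not pass. Prdm1 (GeneID 12142, chromosome 10, 44437174 to 44528558) overlapped between controls (15.05 to 20.2 CPM) and 75 Gy (16.7 to 21.2 CPM) at 6 weeks, with a log2 difference of 0.11 (SE 0.19, adjusted p = 0.697). Neither factor thus differed at 6 weeks beyond the threshold with TMM factors and all 17 libraries. At 75 Gy Xbp1 passed the adjusted p with upper-quartile factors (0.0492), without library 3132 and without library 3142 (0.0361), under the fold limit each time. Without library 3143 its adjusted p was 0.344. At 65 Gy Xbp1 passed the adjusted p with only the groups compared (0.0206).

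Irf4 (GeneID 16364, chromosome 13, 30749233 to 30766981) was at 12.4, 6.88 and 8.68 CPM in the controls of 6 weeks and at 14.7, 15.1 and 17.6 CPM after 75 Gy. The groups did not overlap, and the log2 fold change of 0.76 (SE 0.25, adjusted p = 0.0300) was past the adjusted p but not the fold limit. Without control library 3135 it was 1.02 (adjusted p = 0.0131) and passed both, and without library 3136, 3137, 3142 or 3143 it no longer passed the adjusted p, with 0.58 the lowest value. After 65 Gy Irf4 was at 19.3 and 10.6 CPM, on both sides of the highest control (log2 fold change 0.68, SE 0.28, adjusted p = 0.116, and 0.20 without library 3138).

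Pou2af1 (GeneID 18985, chromosome 9, 51213690 to 51240079), the B cell coactivator OBF-1 that works with octamer-binding factors, went the other way. At 2 weeks it was at 26.9, 18.5 and 20.3 CPM in the controls, 19.4, 17.8 and 19.6 CPM after 65 Gy and 11.2, 13.8 and 8.92 CPM after 75 Gy. Every 75 Gy library was below every control, with a log2 difference of -0.95 (SE 0.24, adjusted p = 0.0103), just under the fold limit. At 6 weeks it was at 44.0, 22.5 and 25.8 CPM in the controls and 22.3, 19.1 and 24.1 CPM after 75 Gy, where the groups overlapped (log2 fold change -0.50, SE 0.24, adjusted p = 0.115). Without control library 3135, the highest, this was -0.15 (adjusted p = 0.633), and without control library 3136, the lowest, it was -0.68 and past the adjusted p (0.0496).

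The Pou2af1 promoter held the core of another element bound by factors of the unfolded protein response, GACGTGG. This core was found in no other window searched for the members and in 2.42% of all promoters. It began 60 bases before the start. The octamer ATTTGCAT, present in 1.74% of promoters, was in none of the windows searched for the members, which left out Mzb1. The 250 bases before the Pou2af1 start (chr9:51213440-51213689, plus strand) are given for comparison with Derl3, since these are the members with the longer matches. A link between these elements and the levels of the genes was not tested. Capitals mark GACGTGG, whose last bases are the complement of CCACG, and a further CCACG complement near the 5′ end.
Pou2af1: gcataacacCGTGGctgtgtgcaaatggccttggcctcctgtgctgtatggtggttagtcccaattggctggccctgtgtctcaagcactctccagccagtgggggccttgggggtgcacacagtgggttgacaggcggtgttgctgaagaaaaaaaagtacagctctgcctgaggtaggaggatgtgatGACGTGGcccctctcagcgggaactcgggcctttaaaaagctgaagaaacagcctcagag

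Counted together at 75 Gy and 6 weeks, 2 of the 10 genes were called higher (adjusted p up to 0.05, log2 fold change of 1 or more in either direction) and 0 lower, where 10.4% of all genes tested were called. Without the fold limit 5 passed (Mzb1, Derl3, Fkbp11, Irf4 and Sdc1), where 36.0% of all genes did. Groups did not overlap for 7 members, all higher after 75 Gy, where 29.4% of all genes were higher and 27.7% lower in this sense. The median log2 fold change was 0.54 over the members and 0.04 over all genes tested, with Pou2af1 below 0 at -0.50. DESeq2 and edgeR's exact test also called 2. The number called was 0 without library 3143 and 4 without control library 3135, when Irf4 and Fkbp11 were added. The 5 past the adjusted p alone became 1 (Sdc1) without library 3143 and 3 without control library 3137.

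**Figure D2:**
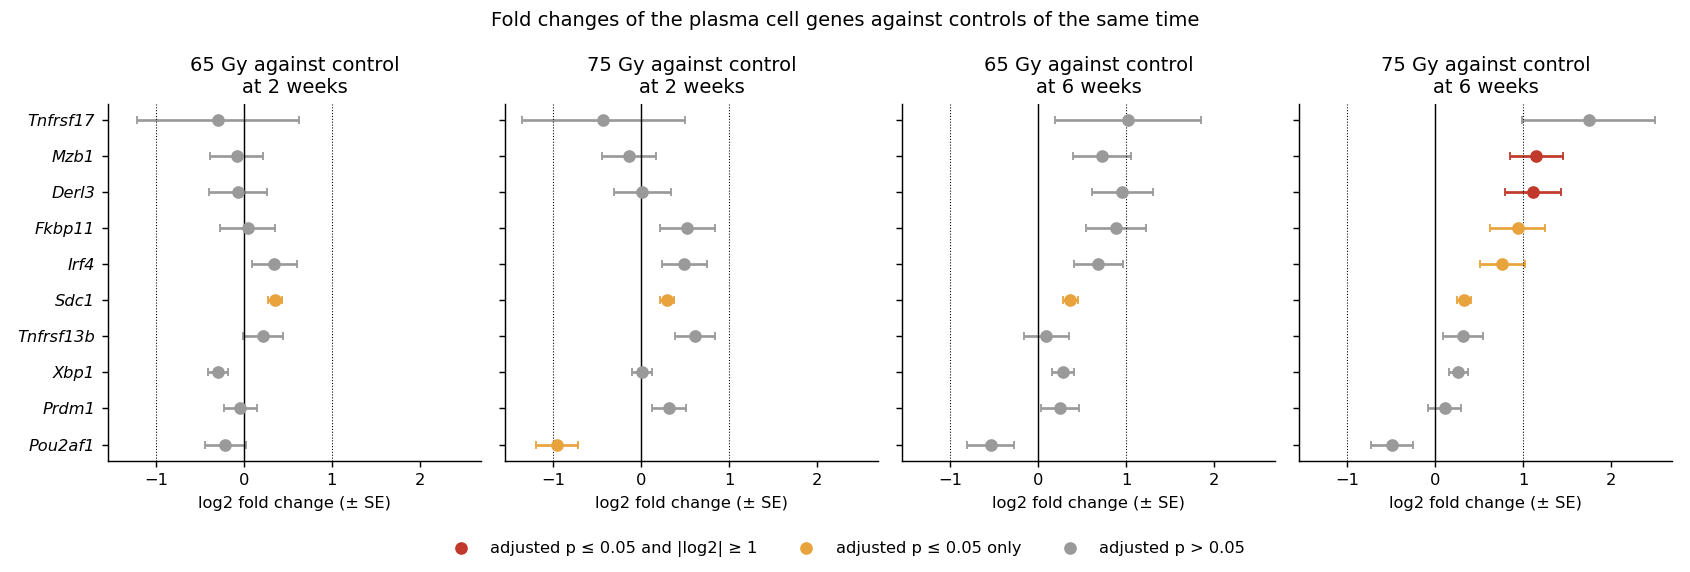
Log2 fold change of each gene against controls of the same time, with bars of 1 SE on either side and dotted lines at the fold limit of 1. Mzb1 and Derl3 at 75 Gy and 6 weeks (1.15 and 1.11) are the called values, and Pou2af1 lies below 0 in all 4 panels.

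**Figure D3:**
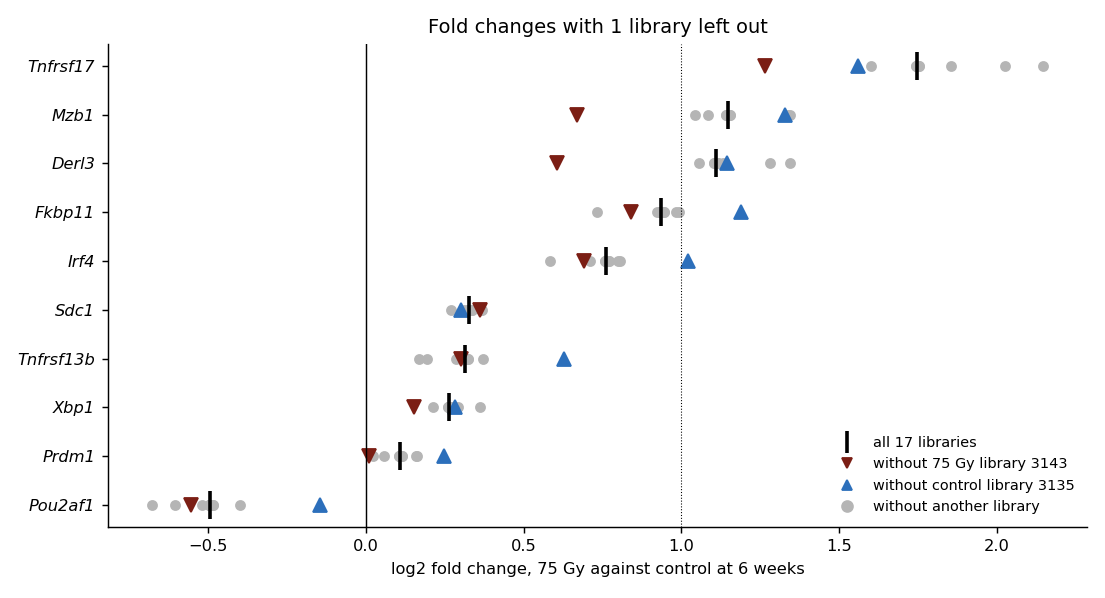
Log2 fold change of each gene between 75 Gy and control at 6 weeks with all 17 libraries and with each library left out in turn. Without library 3143, Mzb1 and Derl3 fall from 1.15 and 1.11 to 0.67 and 0.61, and without control library 3135 Irf4 and Fkbp11 lie above the dotted line at 1.

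At 65 Gy and 6 weeks, 0 members were called by the edgeR quasi-likelihood test, DESeq2 or the exact test, where 5.28% of all genes were called by the first. Sdc1 alone passed without the fold limit (14.7% of all genes). That count of 1 was 0 without library 3138, 2 without library 3143, when Derl3 was added, and 4 with only the groups compared, when Xbp1, Fkbp11 and Derl3 were added. At an unadjusted p under 0.05 there were 6 members, where 29.4% of all genes were at that level. Sdc1, Tnfrsf17, Xbp1, Fkbp11 and Derl3 were higher in both 65 Gy libraries than in all controls, 5 of 10 members, where 28.2% of all genes were higher and 28.1% lower in this sense. The median log2 fold change of the members was 0.53, against 0.01 over all genes.

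At 2 weeks Mzb1 and Derl3 differed from the controls by less than the spread of the libraries. Mzb1 was at 6.47, 4.99 and 5.53 CPM in the controls, 5.44, 5.41 and 5.18 CPM after 65 Gy and 4.61, 6.59 and 4.26 CPM after 75 Gy. Its log2 fold changes were -0.08 (SE 0.30, adjusted p = 0.901) and -0.14 (SE 0.30, adjusted p = 0.794), and those of Derl3 were -0.07 (SE 0.33) and 0.01 (SE 0.33). Fkbp11 was at 2.23 to 5.91 CPM in the controls and 3.76 to 7.46 CPM after 75 Gy, with overlap (log2 fold change 0.52, SE 0.31, adjusted p = 0.253), and without control library 3126 its value was 0.91 (adjusted p = 0.0473). Xbp1 was lower in all 65 Gy libraries (181 to 203 CPM) than in the controls (221 to 249.7 CPM), with a log2 difference of -0.30 (SE 0.11, adjusted p = 0.104), but at 75 Gy it overlapped them (0.01, adjusted p = 0.949). Tnfrsf13b reached 15.9 and 19.8 CPM in 2 of the 75 Gy libraries of 2 weeks, with the other at 10.96 CPM among controls of 8.76 to 12.1 CPM (log2 fold change 0.61, SE 0.23, adjusted p = 0.0676). It was past the adjusted p by DESeq2 (0.0399) and the exact test (0.0477), and without library 3126, 3132 or 3135 (0.0182 to 0.0396), and was 0.40 without the 75 Gy library 3134 (adjusted p = 0.277).

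No member was called at 2 weeks by the edgeR quasi-likelihood test, DESeq2 or the exact test at either dose, where 4.35% (65 Gy) and 7.74% (75 Gy) of all genes were called by the first. Without the fold limit 1 member passed at 65 Gy (Sdc1, where 11.0% of all genes passed) and 2 at 75 Gy (Sdc1 and Pou2af1, where 22.3% passed). At an unadjusted p under 0.05 these were 2 and 3 members, with 25.4% and 35.0% of all genes. At 65 Gy Irf4 and Sdc1 were higher and Xbp1 lower without overlap (15.9% and 13.5% of all genes), and at 75 Gy Sdc1 was higher and Pou2af1 lower (15.5% and 14.8%). Pou2af1 was called at 75 Gy when control library 3127 or 3128 or the 75 Gy library 3133 was left out, with log2 fold changes of -1.06, -1.003 and -1.12. Without the 75 Gy library 3134 it was past neither limit (adjusted p = 0.0510), and without control library 3126 Tnfrsf13b and Fkbp11 passed the adjusted p as well, 4 members in all. The comparisons of both doses share their control libraries at each time.

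Between the doses 0 members were called at either time by any of these tests, and the quasi-likelihood test called 0.0% of all genes at 2 weeks and 0.0% at 6 weeks. At an unadjusted p under 0.05 there were 2 members at 2 weeks (7.12% of all genes) and 0 at 6 weeks (6.49%). These 2 were Pou2af1 (75 against 65 Gy, log2 fold change -0.74, SE 0.24, adjusted p = 0.693) and Xbp1 (0.31, SE 0.11, adjusted p = 0.693). For Mzb1 at 6 weeks the difference between the doses was 0.43 on the log2 scale (SE 0.33, adjusted p = 0.772), with the 65 Gy libraries on both sides of the lower 75 Gy libraries.

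In the controls, 6 weeks against 2 weeks, 0 members were called by the quasi-likelihood test, DESeq2 or the exact test, and 1 was at an unadjusted p under 0.05 (0.576% and 15.5% of all genes). This 1 was Xbp1, which was lower at 6 weeks, with a log2 difference of -0.45 (SE 0.11, adjusted p = 0.0603). It was past the adjusted p by DESeq2 (0.00646), by the exact test (0.0184), with at least 10 counts in every library (0.0459) and without library 3132, 3134 or 3143 (0.0347 to 0.0456), under the fold limit each time. Derl3 and Tnfrsf17 had higher means in the controls of 6 weeks than in those of 2 weeks, and neither passed the adjusted p. Derl3 went from 1.13 to 1.39 CPM at 2 weeks to 1.53 to 1.74 CPM (log2 difference 0.40, SE 0.32, adjusted p = 0.597). For Tnfrsf17, at 4 to 11 and 15 to 28 counts, it was 0.97 (SE 0.85, adjusted p = 0.629). Whether the effect of a dose differed between the times was tested as an interaction. At 65 Gy 0 members were called by the quasi-likelihood test or DESeq2, and 2 were at an unadjusted p under 0.05 (0.0136% and 8.65% of all genes), and at 75 Gy these were again 0 and 2 (0.254% and 16.1%). For 75 Gy the 2 were Mzb1, whose fold change was 1.28 higher on the log2 scale at 6 than at 2 weeks (SE 0.43, unadjusted p = 0.00891, adjusted p = 0.192), and Derl3 (1.10, SE 0.45, adjusted p = 0.260). Without library 3143 these were 0.81 and 0.59 (adjusted p = 0.392 and 0.527). A difference between the times was therefore not shown for these genes.

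The members did not vary as 1 set from library to library. Over the 45 pairs of members the median Pearson r of log2 CPM was 0.35 over the 17 libraries, which share the group structure, and 5 pairs were above 0.7. Mzb1 and Derl3 had the highest r, 0.95, and 0.84 when each library was taken as its deviation from its group mean. A further 3 pairs joined Tnfrsf13b, Prdm1 and Irf4 to each other (0.77 to 0.81, and 0.81 to 0.92 on deviations), and the fifth joined Mzb1 to Tnfrsf17 (0.74, and 0.24 on deviations). Sdc1 and Pou2af1 had the lowest r, -0.44.

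The genes outside the group that were most like each member also differed. For Mzb1 these were Ighv3-6 (r = 0.95), Ighm (0.95) and Ighj4 (0.94), and for Derl3 they were Ighv3-6 (0.94), Igkc (0.93) and Ighv1-64 (0.92), all immunoglobulin segments, whose reads can be split among near-identical copies. For Pou2af1 they were Cd79a (0.91), Siglecg (0.90) and Tnfrsf13c (0.90), which are genes of mature B cells. For Irf4 they were Gm16086 (0.91), Cd4 (0.90) and Trac (0.89), of which Cd4 and Trac are T cell genes. Tnfrsf13b was nearest to Tlr1, Aim2 and Klhl6 (0.89 to 0.90). Sdc1 was nearest to Prnp (0.94), Ttyh2 (0.94) and A930017K11Rik (0.93), Xbp1 to Ada (0.88), Gm7232 (0.83) and Cd320 (0.83), and Prdm1 to Gm29770 (0.81) and Gm16086 (0.80), among others. Fkbp11 was nearest to Gm35162 (0.90), Gpx4 (0.88) and Fam167b (0.87), and Tnfrsf17, with its low counts, to Col8a2 (0.93), Fank1 (0.90) and 1700001L19Rik (0.90).

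Against the summed CPM of marker lists, Mzb1 and Derl3 went with the constant regions of immunoglobulins (r = 0.96 and 0.95, and 0.95 and 0.81 on deviations from the group means). Their r with the mature B cell list was 0.20 and 0.17. Tnfrsf17 had 0.77 with the constant regions, but 0.27 on deviations. Pou2af1 had 0.88 with mature B cells and 0.36 with the constant regions, whereas on deviations these were 0.69 and 0.76. Tnfrsf13b, Irf4 and Prdm1 went with the T cell list (0.88, 0.88 and 0.78, and on deviations 0.88, 0.80 and 0.84). Fkbp11 had 0.79 with the alveolar type 2 list and 0.71 with macrophages, and on deviations 0.64 with the former and 0.69 with mature B cells. Sdc1 had 0.73 with macrophages and 0.64 with the alveolar type 2 list, and on deviations -0.37 and 0.71. With the constant regions Fkbp11 and Irf4 had 0.65 and 0.64 (0.43 and 0.59 on deviations). Tnfrsf13b, Prdm1, Sdc1 and Xbp1 had 0.47, 0.46, 0.38 and -0.05 with them (0.39, 0.50, -0.07 and 0.48 on deviations). The label of plasma cell genes was thus matched, in whole lung, by the libraries' immunoglobulin RNA for Mzb1 and Derl3 more closely than for the other members.

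**Figure D4:**
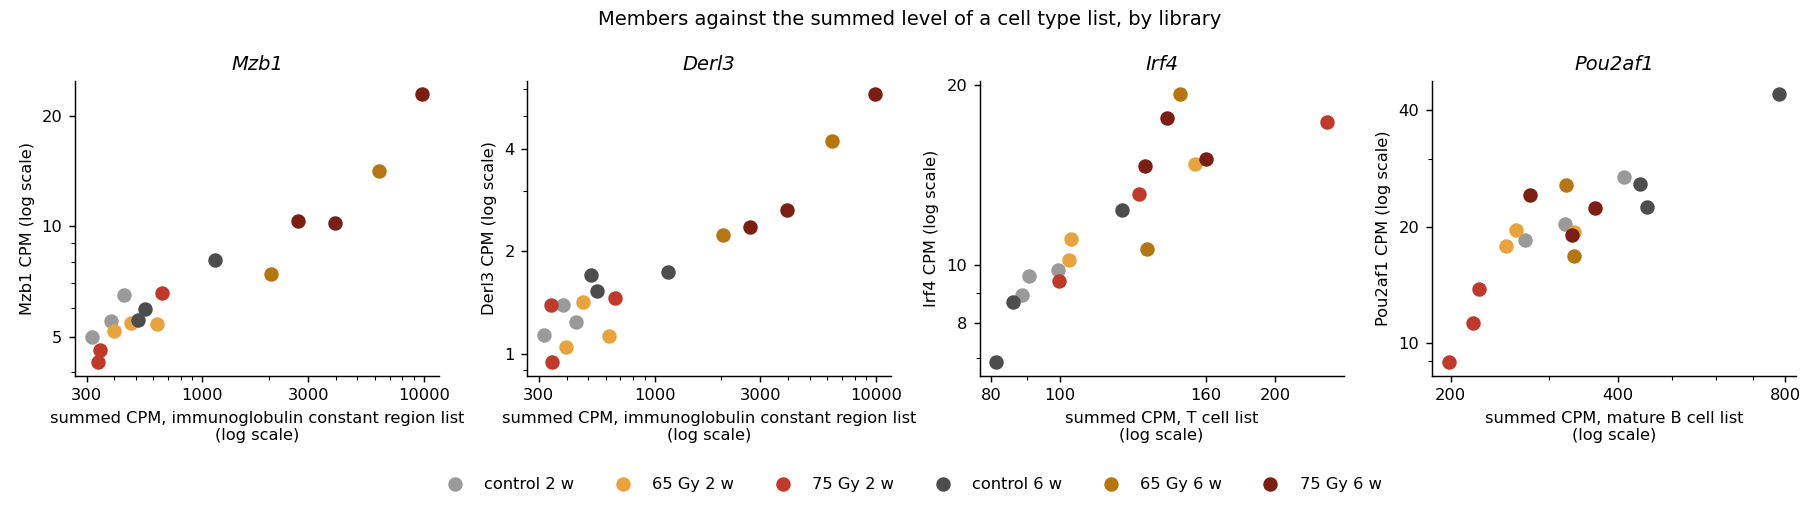
Levels of Mzb1, Derl3, Irf4 and Pou2af1 (CPM) against the summed CPM of a marker list, all on log scales, with 1 point per library coloured by group. Mzb1 and Derl3 are highest in the libraries of 6 weeks with the most immunoglobulin RNA (6300 and 9838 CPM), and Pou2af1 is highest in the control library with the most mature B cell RNA (781 CPM).

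The immunoglobulin constant regions gave the scale of the antibody response in the same libraries. Their summed level was 514 to 1145 CPM in the controls of 6 weeks, 2042 and 6300 CPM after 65 Gy, and 2699, 3966 and 9838 CPM after 75 Gy, the last in library 3143. Of the 11 constant regions tested, 8 were called higher at 75 Gy and 6 weeks and 0 lower, with a median log2 fold change of 3.49. Among all genes tested 10.4% were called. At 65 Gy and 6 weeks 7 were called higher and 1 lower (5.28% of all genes). At 2 weeks these counts were 1 and 0 at 65 Gy (4.35%) and 4 and 1 at 75 Gy (7.74%). The summed level was 316 to 441 CPM in the controls of 2 weeks. It was 398 to 623 CPM after 65 Gy and 339 to 660 CPM after 75 Gy at that time. The list includes Ighm and Ighd, which mature B cells also make. At 75 Gy and 6 weeks Ighg1, Iglc1 and Igha had the smallest p, with log2 fold changes of 7.18, 2.36 and 3.92. Ighe, the twelfth, did not pass the filter on low counts and was at 0 in all control libraries.

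Mature B cell genes ran opposite to this. Of 12 genes, 0 were called higher and 2 lower at 75 Gy and 6 weeks (among them Pax5, log2 fold change -1.41), with a median of -0.80, and Bank1 came next by p (-0.88, under the fold limit). Their summed level was 438 to 781 CPM in the controls of 6 weeks and 278 to 364 CPM after 75 Gy. At 75 Gy and 2 weeks 0 of the 12 were called higher and 3 lower (7.74% of all genes called), with a median of -0.84. The summed level was then 272 to 410 CPM in the controls and 198 to 224 CPM after 75 Gy. The highest value was that of control library 3135, the library that also held the highest Pou2af1 level, and the part of these cells in the result for Pou2af1 was not tested. Of 7 germinal centre genes at 75 Gy and 6 weeks, Gcsam was called higher (1.64) and 0 lower, while Bcl6 (-0.50) and Mef2b (-1.22, adjusted p = 0.470) were not called.

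Other plasma cell genes from a list of 14 gave 5 called higher and 0 lower at 75 Gy and 6 weeks, with a median log2 fold change of 0.40. At 65 Gy and 6 weeks these were 2 and 0, and at 2 weeks 1 and 0 at each dose. Of all genes tested, 10.4% (75 Gy) and 5.28% (65 Gy) were called at 6 weeks, and 7.74% (75 Gy) and 4.35% (65 Gy) at 2 weeks. Jchain, the joining chain of polymeric IgA and IgM, went from 64.7, 27.1 and 20.0 CPM in the controls of 6 weeks to 532, 446 and 1221 CPM after 75 Gy and to 733 and 309 CPM after 65 Gy. Its log2 fold change at 75 Gy was 4.30 (SE 0.66, adjusted p = 0.000255), and the 5 irradiated libraries of 6 weeks stood in the same order as for Derl3. Slamf7, a receptor shared with other leukocytes, and Sec11c, a subunit of the signal peptidase, had changes of 2.23 and 1.06 and were called too. Eaf2 (1.01) and Ccr10 (1.65) were the other genes called. Ccr10 rested on few counts: 29, 7 and 13 in the controls of 6 weeks and 62, 30 and 58 after 75 Gy. Eaf2 held 40 to 70 counts in these controls and 86 to 126 after 75 Gy. Cd38 was not called and went the other way, at 80.8, 68.8 and 59.5 CPM in the controls of 6 weeks. After 75 Gy Cd38 was at 53.9, 53.8 and 48.3 CPM. Tent5c and Cxcr4, also not called, leaned lower too, with overlap of the groups. Tent5c was at 48.3 to 53.7 CPM in the controls of 6 weeks and at 40.4 to 49.3 CPM after 75 Gy. For Cxcr4 these ranges were 63.2 to 100.2 CPM and 62.7 to 69.3 CPM. Jchain was already above the controls at 2 weeks, when the controls held 12.6, 10.2 and 15.1 CPM. Its libraries of 2 weeks held 22.1, 70.0 and 23.5 CPM after 65 Gy and 26.9, 70.6 and 20.4 CPM after 75 Gy.

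Of 10 genes for survival factors and the niche, 3 were called higher and 0 lower at 75 Gy and 6 weeks, with a median of 0.57. These were Il6 (log2 fold change 3.70), Cxcl13 (1.67) and Il10 (1.89). Il10 rested on few counts, 13, 8 and 9 in the controls of 6 weeks and 23, 28 and 57 after 75 Gy. The ligands of the receptors above were under the fold limit: Tnfsf13, which encodes APRIL, had 0.68 (SE 0.15, adjusted p = 0.00353) and Tnfsf13b, which encodes BAFF, had 0.31 (SE 0.10, adjusted p = 0.0258). Tnfrsf13c, the BAFF receptor of mature B cells, had -0.91 (adjusted p = 0.0188).

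Genes of the unfolded protein response, the programme that XBP1 serves, gave 1 called higher and 0 lower of 26 at 75 Gy and 6 weeks, with a median of 0.15. Of all genes tested 10.4% were called, which is a larger share. The gene called was Sdf2l1 (log2 fold change 1.17), a partner of chaperones in the endoplasmic reticulum. Next by p were Eif2ak3 (-0.39), which encodes the sensor PERK, and Pdia4 (0.55), a disulphide isomerase, in opposite directions. Their summed level was 4204 to 4245 CPM in the controls of 6 weeks and 4659 to 5058 CPM after 75 Gy.

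Markers of other cells are given next. As for the lists above, their counts stand beside the 10.4% of all genes called at 75 Gy and 6 weeks. At 75 Gy and 6 weeks 3 of 10 T cell genes (Cd4, Cd3g and Cd3d, 1.17, 1.04 and 1.02) and 6 of 10 macrophage genes were called higher and 0 lower, the latter led by Mrc1, Cd68 and Adgre1 (1.62, 2.22 and 1.83). The summed T cell level was 81.4 to 122 CPM in the controls of 6 weeks and 131 to 160.1 CPM after 75 Gy, beside which the Irf4 values above stand. Of 10 alveolar type 2 genes, Lyz2 and Sftpd were called higher (1.60 and 1.13) and 0 lower, with Lamp3 next by p (0.59), and their summed level was 26275 to 28751 CPM in the controls and 38649 to 48249.8 CPM after 75 Gy. Of 10 airway secretory genes 0 were higher and 1 lower, Cyp2f2 (-1.24), followed by Scgb1a1 (-0.69) and Muc5b (-1.29, adjusted p = 0.318). The part of any of these cells in the members' values was not tested.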

How the data were processed

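Per the labels and the study's methods, total RNA was made into stranded mRNA libraries, and the authors trimmed paired reads, aligned them with HISAT2 to GRCm38.p6 and assembled them with StringTie. The deposited values are whole-number counts per gene, not normalized. How StringTie output became counts, and whether strand was used, is not given in the sources used here.

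All 17 libraries were fitted together with edgeR 4.0.16 in R 4.3.3 (filterByExpr keeping genes by a count of 10 and a total of 15, TMM factors, quasi-likelihood F test, 1 coefficient per group, adjustment by Benjamini and Hochberg over 22052 genes). Calls needed an adjusted p up to 0.05 together with a log2 fold change of 1 or more in either direction. The depth, 46764569 to 66797879 counts, limits Tnfrsf17 most, and intervals for counts of 0 cover counting error only. Correlations used log2 CPM with a prior count of 2. Levels per kb divide CPM by the exon length of GENCODE vM21. Each member is named, with the 3 other genes most like it, and up to 3 genes of each list with the smallest p at 75 Gy and 6 weeks; some genes that this rule selects are not reported here. Other list genes were named, and the correlations with summed lists added, with the values in view. The members and lists were chosen with earlier results of these data known.

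Alternatives were RLE and upper-quartile factors, other filters, DESeq2 1.42.0, edgeR's exact test, only the groups compared, no fold limit and leaving out each library. On simulated counts of 22031 genes with 200 changed 4-fold, the test recovered 160 with 4 false calls between 75 Gy and control at 6 weeks. The called members changed by less (log2 fold changes of 1.15 and 1.11), and recovery of changes of that size was not simulated.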

Additional observations from a re-analysis of the deposited data

How the results depend on the processing

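Leaving out 1 library in turn gave 0 to 4 members called at 75 Gy against control at 6 weeks (2 with all libraries) and 0 to 1 at 75 Gy against control at 2 weeks (0 with all libraries), while the other 7 comparisons stayed at 0. The count of 0 came without library 3143 and that of 4 without control library 3135. Without a fold limit, the counts were 1 at 65 Gy and 2 at 75 Gy against control at 2 weeks, and 1 at 65 Gy and 5 at 75 Gy at 6 weeks. RLE and upper-quartile factors, both other filters, DESeq2 and the exact test changed no count of members called by more than 1.5 times. With only the groups compared, the count at 75 Gy and 6 weeks was 3. Tnfrsf17 was left out by the filter of 10 counts in every library. No member whose change passed the adjusted p turned direction under any alternative. No paired analysis was possible because groups share no library numbers. Groups of 2 or 3 libraries limit every call, and counts under 100 per library limit Tnfrsf17 and the calls of Ccr10 and Il10.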
